A study of Homo sapiens with 18 samples.

Results

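Heat shock and chaperone genes were followed by symbol in RNA-seq of hTERT RPE-1, a human retinal pigment epithelial line immortalised with telomerase. The 10 genes, matched to the Ensembl identifiers of 58051 genes in the count files, were HSPA1A, HSPA1B, HSPA8, DNAJB1, HSPH1, HSP90AA1, HSPE1, HSPD1, BAG3 and HSPB1. The study asked how etoposide, which traps topoisomerase II on cleaved DNA, bears on RNA stability and gene expression. Cells of all groups had been moved from 10% to 0.1% serum for 48 h and received 10 µM triptolide, which blocks transcription through a subunit of TFIIH.

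The 6 groups, of 3 libraries each, were DMSO or 50 µM etoposide for 30 min, each at time points 0, 20 and 40. The labels give neither the unit of the time points nor whether triptolide was already present at 0, and only the sample titles name the DMSO arm. They call the samples of a group independent replicates without saying what was independent, so the p-values measure the spread between these samples. The model is 1 immortalised line, starved of serum in every group.

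Chaperones bind unfolded stretches of other proteins and release them in cycles that for most families are driven by ATP. HSP70 proteins are loaded with clients by J-domain partners such as DNAJB1 and reset by nucleotide exchange factors such as HSPH1 and BAG3, while HSP90 acts later on kinases and receptors. When damaged proteins accumulate, the transcription factor HSF1 binds heat shock elements, inverted repeats of the unit nGAAn, and induces most of these genes. HSPA8, HSP90AA1 and the mitochondrial pair HSPD1 and HSPE1 are also expressed without stress, whereas HSPA1A and HSPA1B are known for strong induction.

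Total counts per library ranged from 7957691 to 11580219, and 17854 to 20410 genes had a count. Of the retinal pigment epithelium markers, KRT8 averaged 697 CPM (counts per 1000000 counts of the library), KRT18 655 CPM, MITF 43.1 CPM and OTX2 26.4 CPM, but RPE65 had 0 to 7 counts, RLBP1 1 to 25, and DCT and TTR 0. SERPINF1, RDH5 and MERTK of the same list averaged 9.66, 8.92 and 8.31 CPM, and BEST1 had 5 to 21473 counts, the highest in DMSO time point 0 replicate 2. Of the fibroblast markers THY1, FAP, COL1A1 and PDGFRA averaged 501, 186, 36.4 and 23.6 CPM and DCN and POSTN 2.84 and 2.06 CPM, while COL3A1 had 0 to 11 counts, LUM 0 to 7 and COL1A2 0 to 4. The blood markers had at most 11 counts. As this is bulk RNA, fewer cells with a transcript and less of it per cell cannot be told apart, and every value is relative to the rest of the library.

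The sequences shown first are those that bear on what could be counted. HSPA1A and HSPA1B lie close together in the MHC and encode almost the same protein. Their coding sequences, of 1923 bases each, differed at 4 positions (99.792% identity), and the longest identical run was 1709 bases. The stretch with the most differences spans coding positions 1846 to 1905, on GRCh38 chr6:31817602-31817661 in HSPA1A and chr6:31829796-31829855 in HSPA1B, both in the single exon and on the plus strand. Its 2 differing bases are in capitals.
HSPA1A: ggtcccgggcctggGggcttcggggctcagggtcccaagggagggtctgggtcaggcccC
HSPA1B: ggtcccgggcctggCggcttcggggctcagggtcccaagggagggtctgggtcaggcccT
Reads from the shared run cannot be assigned to 1 gene by sequence. Of the 50-base stretches of the HSPA1A transcript, 72.555% also occurred in HSPA1B, and 69.883% of the 100-base stretches did, so the rest was distinct from HSPA1B. Among the other 8 genes the share of 50-base stretches found in another gene ranged from 0% in HSPH1 and BAG3 to 24.771% in HSPD1, and where there was sharing the gene that shared most was a pseudogene.

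The promoters were searched for the inverted repeat that HSF1 binds, because it is the element these genes are known to share. The letters sought were GAANNTTC or TTCNNGAA, both of which read the same on either strand, in the 250 bases before each RefSeq start (GRCh38.p14). A match was found for 7 of the 10 genes and none for HSPH1, BAG3 and HSPE1. Among all 35116 promoters in the table, 11.58% held a match, as did 13.96% of genes. A run of 3 such units in alternating direction contains the shorter motif more than once. It was present at the only listed start of HSPA8 and at the second of 2 listed starts of HSP90AA1 and HSPD1. Of all promoters 0.441% held such a run, a share per start and not per gene. Windows around the matches nearest the start are shown in the direction of transcription, with matched letters in capitals, for the stress-inducible pair, for the gene with the lowest p below and for the most abundant cytosolic chaperones.
HSPA1A, plus strand of chr6:31815417-31815464: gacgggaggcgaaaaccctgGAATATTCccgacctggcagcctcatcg
HSPA1B, plus strand of chr6:31827613-31827660: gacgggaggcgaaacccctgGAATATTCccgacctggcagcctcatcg
DNAJB1, the second of 3 listed starts, minus strand of chr19:14518417-14518494: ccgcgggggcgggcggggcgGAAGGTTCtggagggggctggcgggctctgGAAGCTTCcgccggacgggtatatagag
HSPA8, minus strand of chr11:123062171-123062199: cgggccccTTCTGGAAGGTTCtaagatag
HSP90AA1, the second of 2 listed starts, minus strand of chr14:102087104-102087133: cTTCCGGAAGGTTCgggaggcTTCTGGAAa
HSPA1A and HSPA1B thus carried the same 8 letters at positions -106 and -105, and DNAJB1 carried a pair of matches at -77 and -47. These matches are descriptions of letters only, and no binding was measured.

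The 2 strongly inducible HSP70 genes had almost no counts in any condition. HSPA1A (ENSG00000204389, chromosome 6, 31815464 to 31817946) had 3 counts in all 18 libraries together, of which 2 were in DMSO time point 40 replicate 1 and 1 was in etoposide time point 20 replicate 2. HSPA1B (ENSG00000204388, chromosome 6, 31827735 to 31830255) had 0 counts in every library. A count of 0 allows up to 3 counts, or 0.259 to 0.377 CPM depending on the library, for counting error only. Neither gene passed the filter on low counts, so 8 of the 10 genes were tested. The DMSO and etoposide groups could not be distinguished for either gene at this depth.

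Beside this stands the coverage of the region. Of 29 protein-coding neighbours, 8 averaged at least 10 CPM in replicates 1 and 2, and these averaged at most 3.79 CPM in replicate 3. The other 21, HSPA1L among them, were below 3 CPM in replicates 1 and 2 already. CLIC1, which encodes an intracellular chloride channel protein, averaged 302.5 CPM in the 12 libraries of replicates 1 and 2 and 3.79 CPM in the 6 of replicate 3. Of those 6, DMSO time point 40 had 213 counts (22.3 CPM) and the others 0 to 3 counts. C6orf48, a host of small nucleolar RNAs and the first expressed gene after HSPA1B, averaged 122 CPM and had 0 counts in all replicate 3 libraries. EHMT2, a histone methyltransferase gene, gave 50.8 CPM and 0 counts. In replicates 1 and 2, where these 3 neighbours were counted, HSPA1A had 0 to 2 counts, HSPA1B 0 and HSPA1L, the third HSP70 gene of the cluster, 0 to 5. How the authors' counting treated reads matching several places is not given in the sources used here, and its part in these values was not tested. HSPA6, an inducible HSP70 gene on another chromosome that is known to be silent without stress, had 0 to 4 counts per library.

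**Figure D1:**
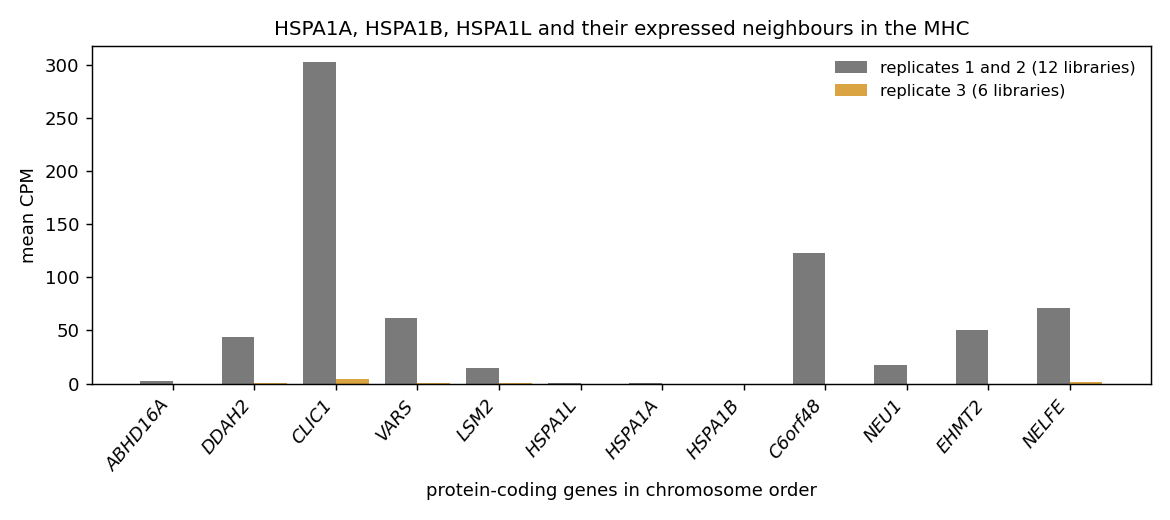
Mean CPM (vertical axis) of HSPA1A, HSPA1B, HSPA1L and the protein-coding genes within 150000 bases that averaged at least 1 CPM in replicates 1 and 2, in chromosome order. Grey bars are the 12 libraries of replicates 1 and 2 and ochre bars the 6 of replicate 3. CLIC1 stands at 302.5 against 3.79 CPM, the latter mostly from 1 library with 22.3 CPM, while the 3 HSP70 genes are near 0 in both.

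The other 8 genes were counted well in every library, with 304 counts for the weakest value (HSPE1) and 27138 for the strongest (HSPA8). Per length, as CPM per kb of annotated exon, the constitutive HSP70 gene HSPA8 was highest at 428 ± 55.0 (SD, n = 18) and HSP90AA1, the inducible cytosolic HSP90, followed at 282 ± 36.4. HSPB1, a small heat shock protein that holds unfolding clients without ATP, averaged 167 ± 24.5 and the mitochondrial chaperonin HSPD1 87.1 ± 9.87. The co-chaperones were lower, with BAG3 at 51.2 ± 3.86 and DNAJB1 at 36.5 ± 3.91. HSPE1, the lid of the HSPD1 chaperonin, averaged 20.4 ± 3.99, and HSPH1, the HSP110 exchange factor, 14.5 ± 2.09 (all CPM per kb, SD, n = 18).

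This order held within every library but 2. HSPD1 exceeded HSPB1 in etoposide time point 20 replicate 2, and HSPH1 exceeded HSPE1 in etoposide time point 0 replicate 3. Across libraries the ranges of HSP90AA1 and HSPB1, of HSPD1 and BAG3, and of BAG3 and DNAJB1 did not overlap, while those of the other neighbours in the order did. Exon length is the union over all annotated transcripts, which lowers genes with many annotated forms such as HSPH1, at 8390 bases. With the length of the longest coding transcript in its place, an alternative added after seeing the data, DNAJB1 averaged 59.2 ± 6.34 and BAG3 54.7 ± 4.12 CPM per kb (SD, n = 18). Their order then turned and their ranges overlapped, while the other 6 genes kept their order by mean. The coefficient of variation of normalised CPM over the 18 libraries ran from 7.53% for BAG3 to 19.6% for HSPE1.

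**Figure D2:**
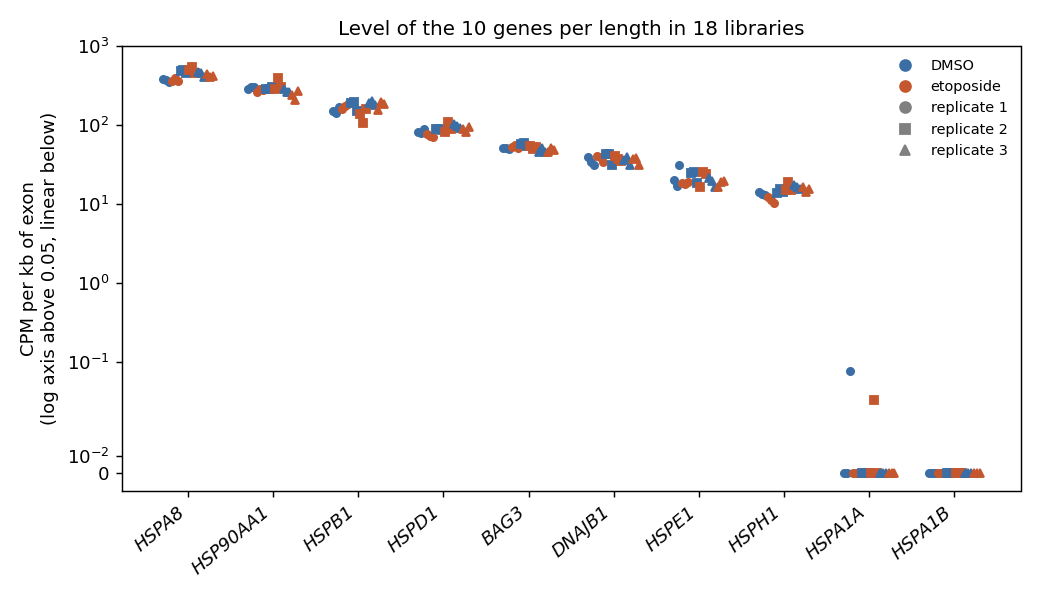
Level of each of the 10 genes per length (CPM per kb of exon, logarithmic above 0.05 and linear below) in the 18 libraries. Blue points are DMSO, orange points etoposide, and the marker gives the replicate number. HSPA8 averages 428 and HSPH1 14.5 CPM per kb, and HSPA1A and HSPA1B lie at or near 0.

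How the transcripts held up after triptolide was asked by comparing time point 40 with 0 in each arm. DNAJB1 had the lowest p of the 8 genes in both arms, with a lower level at 40 in every replicate, but did not pass the threshold after adjustment over all genes. The other 7 genes did not approach it in either arm. With edgeR's quasi-likelihood test and Benjamini-Hochberg adjustment over 14186 genes, 0 of 8 genes passed an adjusted p of 0.05 in the DMSO arm, where 0.423% of all tested genes passed (60, all lower), and 0 of 8 in the etoposide arm, where 0.204% passed (29, all lower). With the replicate number as a block the shares were 1.22% (1.21% lower and 0.0141% higher) and 1.01%, and again 0 of 8 passed in either arm. At an unadjusted p below 0.05 only DNAJB1 was counted among the 8, in both arms, against 4.06% of all genes with DMSO and 3.04% with etoposide. DESeq2 and limma-voom without the block also called 0 of 8.

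DNAJB1 (ENSG00000132002, chromosome 19, 14514770 to 14529770, minus strand) encodes the stress-inducible J-domain partner of HSP70. In the DMSO arm its normalised CPM in replicates 1, 2 and 3 were 143.6, 156.9 and 131.8 at time point 0, then 123.0, 155.9 and 143.0 at 20, and 115.4, 115.3 and 113.3 at 40. In the etoposide arm they were 146.5, 148.7 and 136.7 at 0, then 143.9, 135.2 and 139.3 at 20, and 123.1, 126.2 and 114.2 at 40. In both arms all 3 values at 40 lay below all 3 at 0, while the values at 20 overlapped those at 0. Such a separation with lower values at 40 was seen for 4.36% of all tested genes with DMSO and 4.84% with etoposide. Mean CPM were 144.1 ± 12.6 and 114.6 ± 1.17 with DMSO, and 144.0 ± 6.39 and 121.2 ± 6.25 with etoposide (SD, n = 3).

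The log2 difference of DNAJB1 between 40 and 0 was -0.33 (SE 0.10, 95% interval -0.55 to -0.11, adjusted p = 0.416 by edgeR's quasi-likelihood test with Benjamini-Hochberg adjustment) with DMSO. With etoposide it was -0.25 (SE 0.10, interval -0.47 to -0.03, edgeR adjusted p = 1). These values are without the replicate block. With it the difference was -0.33 (SE 0.09, interval -0.52 to -0.14, edgeR adjusted p = 0.117) with DMSO. In the etoposide arm the blocked difference was -0.25 (SE 0.09, interval -0.44 to -0.06, edgeR adjusted p = 0.443). Of all tested genes, 10.96% had a lower difference in the DMSO arm and 14.51% in the etoposide arm. These shares are over genes of any level and were not restricted to genes counted as well as DNAJB1. The interaction, the etoposide difference minus the DMSO difference, was 0.08 (SE 0.15, interval -0.23 to 0.40), which does not show that the arms were alike. In 2 alternatives that use the replicate block the DMSO difference did pass, at an adjusted p of 0.0417 with DESeq2 and 0.0355 with edgeR after leaving out etoposide time point 20 replicate 2. DNAJB1 shares 211 exon bases with TECR on the opposite strand. TECR, which encodes an enzyme of fatty acid elongation, differed by 0.03 (SE 0.16) with DMSO and 0.18 (SE 0.16) with etoposide on the same log2 scale.

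**Figure D3:**
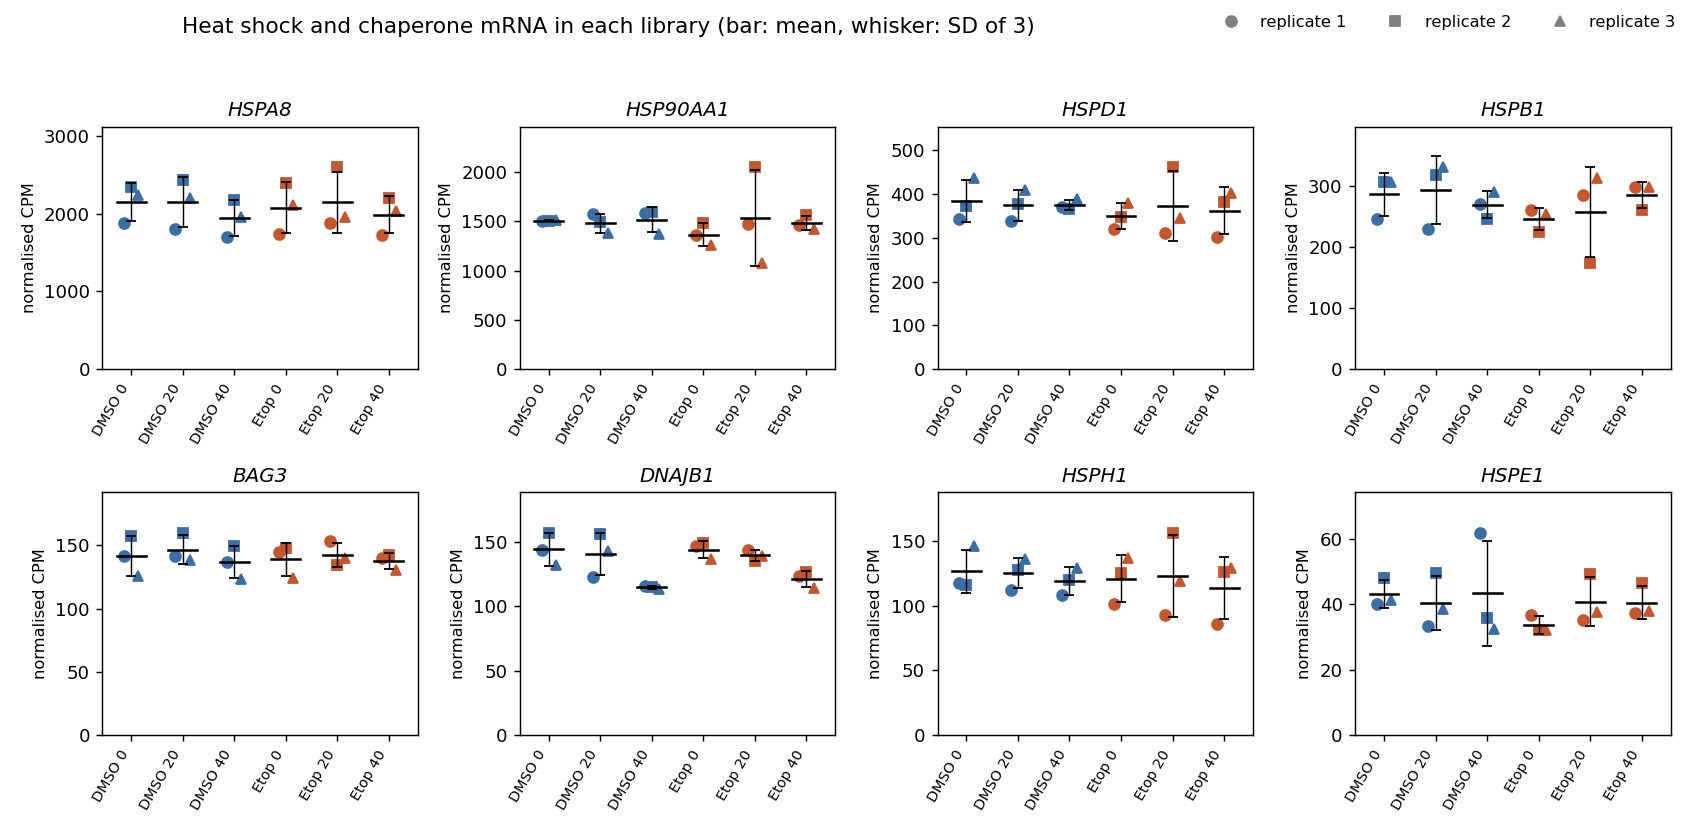
Normalised CPM (vertical axis, from 0, a separate scale for each gene) of the 8 tested genes in each of the 18 libraries, by arm and time point. Blue is DMSO, orange is etoposide, markers give the replicate number, bars the mean and whiskers the SD of 3. DNAJB1 at time point 40 lies at 113.3 to 115.4 with DMSO and 114.2 to 126.2 with etoposide, below time point 0 in both arms.

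The values of HSP70 and its exchange factors at 40 overlapped those at 0 in each arm, and none of these genes passed the test. HSPA8 (chromosome 11, 123057489 to 123063230, minus strand), which folds new and transported proteins in unstressed cells, had 1874, 2343 and 2239 CPM in the DMSO arm at 0 and 1701, 2171 and 1954 at 40. With etoposide it had 1735, 2394 and 2109 at 0 and 1731, 2198 and 2030 at 40. Replicate 1 was the lowest of the 3 in all 6 groups. Between libraries of the same replicate number HSPA8 was lower at 40 than at 0 in 3 of 3 pairs with DMSO and 3 of 3 with etoposide. With the replicate block its log2 difference with DMSO was -0.15 (SE 0.08, interval -0.31 to 0.01, edgeR adjusted p = 0.655). HSPH1 (chromosome 13, 31134974 to 31162388, minus strand) ranged from 86.1 to 156.1 CPM over all libraries with a median of 122, and BAG3 (chromosome 10, 119651370 to 119677819, plus strand), which couples HSP70 to autophagy, from 123.7 to 159.8 with a median of 140.5. For both, the values at 20 and at 40 overlapped those at 0 in each arm, although BAG3 was lower at 40 in 3 of 3 same-numbered pairs with DMSO. In the etoposide arm HSP90AA1, HSPE1 and HSPB1 were higher at 40 in 3 of 3 such pairs. The share of all tested genes with 3 of 3 pairs in the same direction was not counted.

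HSP90AA1 (chromosome 14, 102080738 to 102139699, minus strand) was steady in most groups. It had 1507, 1501 and 1515 CPM with DMSO at 0 and 1582, 1596 and 1373 at 40. With etoposide it had 1362, 1482 and 1256 at 0, then 1474, 2053 and 1077 at 20, and 1464, 1561 and 1428 at 40. The highest and the lowest value of the whole series thus belonged to the same group, etoposide at 20. Its log2 difference between 20 and 0 in that arm was 0.17 (SE 0.17) with all libraries. It was -0.10 (SE 0.14) without replicate 2 of etoposide at 20, and 0.37 (SE 0.14) without replicate 3 of it. In the last case edgeR's quasi-likelihood test gave an unadjusted p of 0.021 and an adjusted p of 0.9996. An opposite-strand neighbour, WDR20, shares 197 exon bases with it and had 177 to 389 counts per library.

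HSPB1 (chromosome 7, 76302544 to 76304295, plus strand) showed the mirror image in that group. It had 285.8, 174.3 and 314.5 CPM in etoposide replicates 1, 2 and 3 at 20, against 260.5, 225.7 and 254.2 at 0 and 298.6, 261.2 and 298.7 at 40. The value of replicate 2 at 20 was the lowest of the series. The 3 values at 40 lay just above the 3 at 0, a separation seen in the higher direction for 3.09% of all tested genes, and the log2 difference was 0.21 (SE 0.19). In the DMSO arm HSPB1 had 246.3, 307.2 and 306.7 CPM at 0 and 271.8, 247.3 and 291.5 at 40, which overlapped.

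The mitochondrial chaperonin genes lie on chromosome 2, HSPD1 at 197486581 to 197516737 on the minus strand and HSPE1 at 197499994 to 197503457 on the plus strand. The annotated span of HSPE1 thus falls within that of HSPD1. They share 281 exon bases on opposite strands. The strand setting of the authors' counting is not given in the sources used here, so reads of the overlap may have been lost or given to either gene. HSPD1 had 342.0, 372.4 and 437.1 CPM with DMSO at 0 and 371.5, 366.4 and 387.7 at 40, and 320.6, 348.1 and 380.1 with etoposide at 0 and 302.0, 381.7 and 403.6 at 40. All of these groups overlapped. Of the counts of gene and pseudogenes together, the pseudogenes held 0.834% for HSPD1 and 1.08% for HSPE1.

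HSPE1 was the least steady gene. It had 39.99, 48.08 and 41.43 CPM with DMSO at 0 and 61.9, 35.85 and 32.43 at 40, so that replicate 1 at 40 was the highest value of the series. The log2 difference between 40 and 0 with DMSO was 0.0041 (SE 0.22), and without that library it was -0.34 (SE 0.19), neither past the threshold. With etoposide HSPE1 had 36.78, 32.29 and 32.03 CPM at 0 and 37.31, 46.51 and 37.94 at 40. These did not overlap, though the nearest values were 36.78 and 37.31, and 3.09% of all tested genes separated in this higher direction. The log2 difference was 0.27 (SE 0.22). The read-through gene HSPE1-MOB4 had 2 counts in all libraries.

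As a group, 6 of the 8 genes had a negative log2 difference between 40 and 0 with DMSO under TMM or RLE scaling. When scaled to library totals or to housekeeping genes, 8 of 8 were negative. Of all tested genes, 48.7% were negative under TMM, 47.7% under RLE, 52.2% with library totals and 49.8% with housekeeping genes. The housekeeping set, here and below, held 104 housekeeping and ribosomal protein genes. Under TMM the median of the 8 was -0.07 beside 0.0055 for all tested genes. With etoposide 4 of 8 were negative, or 5 of 8 under housekeeping scaling, and the medians under TMM were 0.016 and 0.0027. Of all tested genes, 49.3% were then negative under TMM, 47.1% under RLE, 57.2% with library totals and 74.1% under housekeeping scaling. All 8 interaction values were positive under TMM and RLE scaling, but 1 turned negative with library totals and 4 with housekeeping genes, a scaling that shifted the median over all tested genes by -0.10. The share of all tested genes with a positive interaction was not counted. At time point 20 against 0, 0 of 8 passed in either arm, where 0% of all tested genes passed with DMSO and 0% with etoposide. With all libraries no unadjusted p of the 8 was below 0.05 there, against 1.4% and 1% of all genes.

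**Figure D4:**
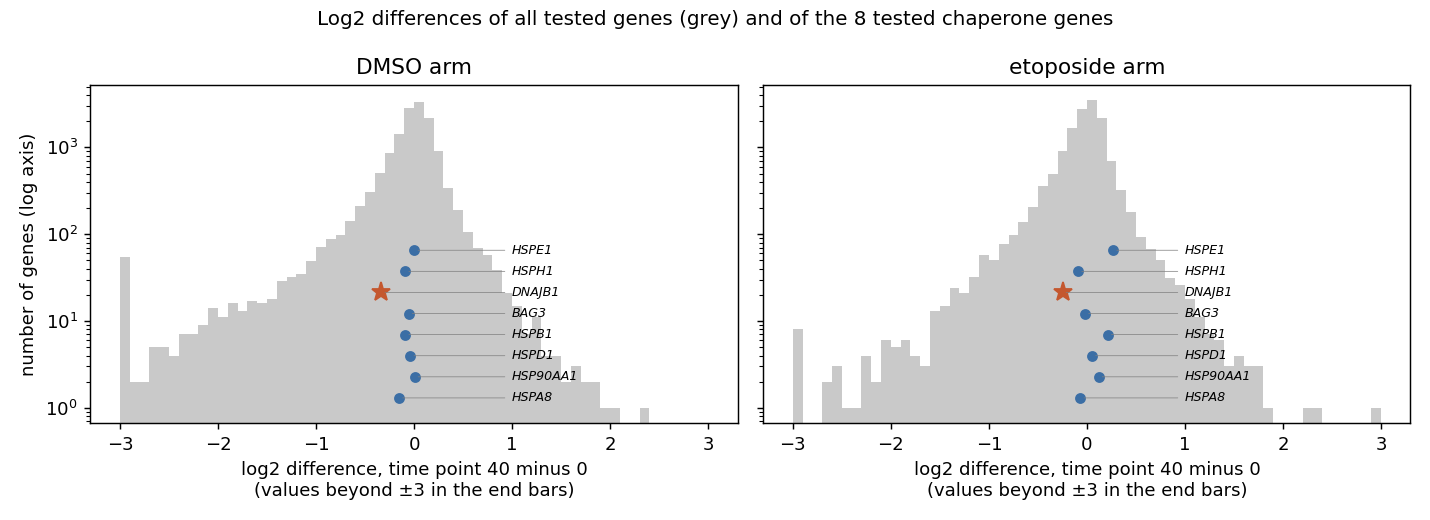
Distribution of the log2 difference between time points 40 and 0 over all tested genes (grey, number of genes on a logarithmic axis), for DMSO and etoposide. Points mark the 8 chaperone genes, with a star for DNAJB1, and their height has no meaning. DNAJB1 lies at -0.33 and -0.25, and 10.96% and 14.51% of all genes lie lower.

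Whether etoposide altered these genes was asked by comparing the arms at each time point. None of the 8 passed at any time point, and the arms lay close together for most genes. At time point 0 edgeR's quasi-likelihood test with Benjamini-Hochberg adjustment called 0 of 8, as it called 0% of all genes, and at 20 it called 0 of 8 and 0% of all genes. At 40 it called 0 of 8 against 0% of all genes (0.00705% with the replicate block), and over the 3 time points averaged 0 of 8 against 0% (0.0282% with the block). The interaction at 40 was called for 0 of 8 and 0% of all genes. At an unadjusted p below 0.05, 0 of 8 were counted in all of these, against 2.66%, 0.761%, 0.98% and 1.77% of all genes in the same order of the arm comparisons. DESeq2 and limma-voom called 0 of 8 in each as well.

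The intervals of the averaged comparison show which folds these data allow. Without the block its 95% intervals covered folds of 0.929 to 1.11 for DNAJB1, 0.893 to 1.09 for BAG3, and 0.860 to 1.15 for HSPA8 (etoposide over DMSO). For HSP90AA1 the interval was 0.841 to 1.12, for HSPD1 0.839 to 1.09 and for HSPH1 0.820 to 1.13. For HSPB1 it was 0.791 to 1.09, and it was widest for HSPE1, at 0.750 to 1.09. With the replicate block they were 0.940 to 1.10 for DNAJB1, 0.916 to 1.07 for BAG3, 0.933 to 1.06 for HSPA8, 0.874 to 1.06 for HSP90AA1 and 0.872 to 1.04 for HSPD1. For HSPH1 the blocked interval was 0.865 to 1.05, for HSPB1 0.815 to 1.05 and for HSPE1 0.772 to 1.06. Each of the 8 includes a fold of 1 with and without the block.

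Before the later time points, at 0, all 8 genes had lower estimates with etoposide than with DMSO under TMM and RLE scaling, as did 7 with library totals but 4 with housekeeping scaling, which shifted the median over all tested genes by 0.11. The estimates ran from -0.0048 for DNAJB1 to -0.36 for HSPE1 (SE 0.22), with a median of -0.10 beside -0.0059 for all tested genes. HSPE1 and HSP90AA1 did not overlap between the arms, which 3.02% of all genes did in the lower direction. For HSP90AA1 the nearest values were 1482 with etoposide and 1501 with DMSO. At 20 and 40 every one of the 8 genes overlapped between the arms. Of all tested genes, 50.21% had an estimate at time point 0 below that of DNAJB1, the highest of the 8 under TMM. The genes are not independent, and the count of lower estimates at 0 carries no test.

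**Figure D5:**
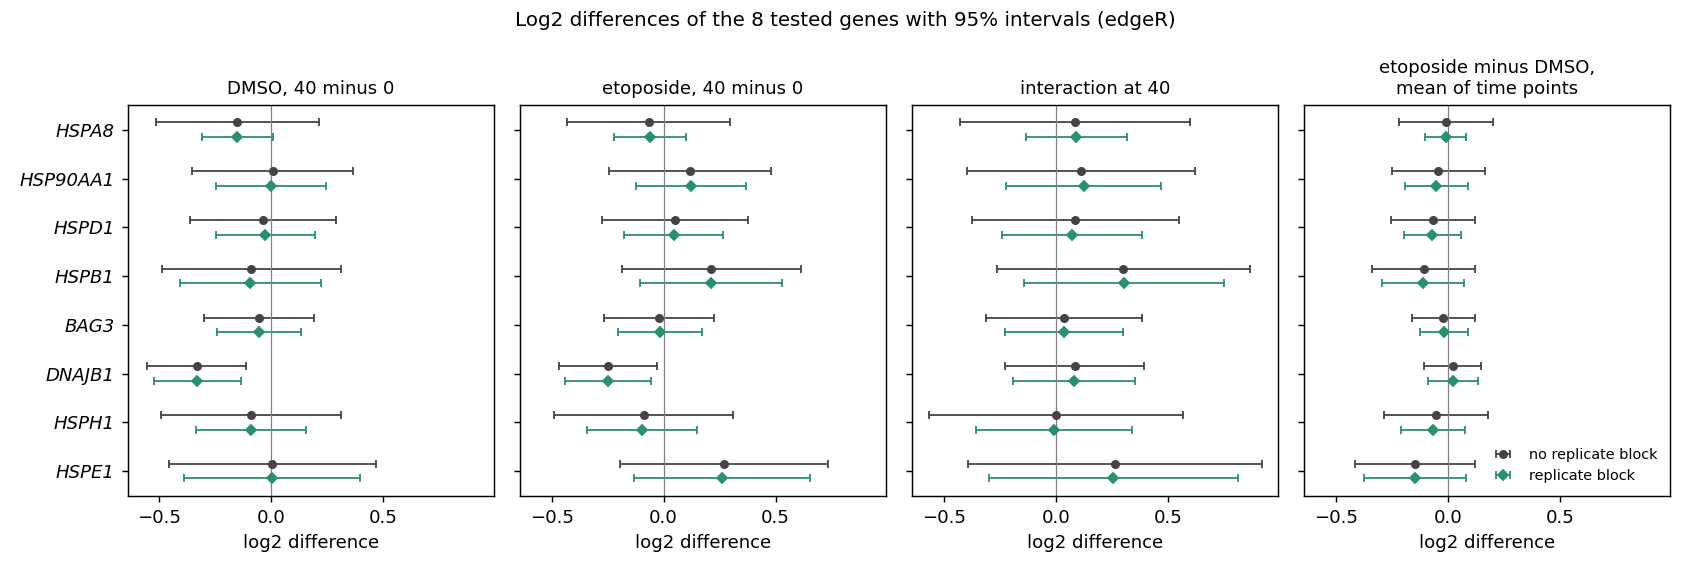
Log2 differences (horizontal axis) of the 8 tested genes with 95% intervals from edgeR, without (grey circles) and with the replicate block (green diamonds), for 4 comparisons. For DNAJB1 the intervals of time point 40 minus 0 lie below 0 in both arms, at -0.55 to -0.11 and -0.47 to -0.03 without the block. The intervals of the other 7 genes include 0.

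A wider list of 153 chaperone and stress genes was also examined, of which 152 were in the files and 140 were tested. The list overlaps the 10, with DNAJB1, HSPA8 and HSPD1 among its genes, so it is not a separate set. Without the block 0 of 140 passed in the DMSO arm between 0 and 40, with a median log2 difference of -0.0083 beside 0.0055 for all genes, and 0 of 140 in the etoposide arm, with 0.050 beside 0.0027. In the etoposide arm 42 of 140 had a negative difference, beside 49.3% of all tested genes, and in the DMSO arm 74 of 140, beside 48.7%. The number of negative signs depended on the scaling, which was varied for the wider list after seeing the data. With housekeeping scaling 92 of 140 were negative with etoposide, beside 74.1% of all tested genes, and 81 of 140 with DMSO, beside 49.8%. Scaled to library totals 56 and 84 were negative, beside 57.2% and 52.2% of all tested genes. Under RLE these counts were 38 and 73, beside 47.1% and 47.7%. Under each scaling the negative share of the list was below that of all tested genes with etoposide and above it with DMSO. A change of scaling moves the list and all tested genes nearly alike, so agreement between scalings is no separate support. At time point 0, under TMM and without the block, 98 of 140 already had a lower estimate with etoposide than with DMSO. The median there was -0.057 beside -0.0059 for all tested genes. The same time point 0 libraries enter the differences between 0 and 40. The offset was not tested.

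By family under TMM scaling, 2 of 11 HSP70 and HSP110 genes, 15 of 37 J-domain genes, 7 of 24 HSP90 and co-chaperone genes, 5 of 10 BAG and exchange factor genes and 1 of 6 small heat shock protein genes were negative with etoposide. With DMSO these counts were 5, 18, 13, 7 and 4. Of 17 chaperonin and prefoldin genes 1 was negative with etoposide and 6 with DMSO, and of 17 chaperones of the endoplasmic reticulum, which follow the unfolded protein response and not HSF1, 1 and 7. Of 16 mitochondrial chaperones and proteases 5 and 10 were negative, of 7 heat shock factors and regulators 5 and 2, and of 12 other stress response genes 4 and 10. With housekeeping scaling the chaperonin and prefoldin list had 12 of 17 negative with etoposide and the endoplasmic reticulum list 7 of 17. The share of all tested genes was then 74.1%. No list had a member past the threshold without the block, and nothing is read from these signs.

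With the replicate block 1 of the 140 passed between 0 and 40 with DMSO, where 1.22% of all tested genes passed, and the same gene passed between the arms over the averaged time points, where 0.0282% did. It was RGS2, a regulator of G protein signalling on the list of other stress response genes. It fell by 1.35 on the log2 scale (SE 0.23, edgeR quasi-likelihood with Benjamini-Hochberg adjusted p = 0.0016) from 0 to 40 with DMSO, where it averaged 4.33 CPM at 0 and 1.72 CPM at 40. In the etoposide arm its blocked log2 difference from 0 to 40 was -0.53 (SE 0.20, edgeR adjusted p = 0.472). The blocked interaction at 40 was 0.82 (SE 0.31, edgeR adjusted p = 0.992), so a difference in the fall between the arms was not shown. Over the averaged time points RGS2 was higher with etoposide by 0.85 (SE 0.12, edgeR adjusted p = 0.0057). Without the block it passed in none of these comparisons, and the spread between replicate numbers was wide, with 16 to 53 counts in DMSO at 0 and 5 to 30 at 40.

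The regulator HSF1 averaged 83.0 ± 5.11, 91.0 ± 4.10 and 77.1 ± 2.17 CPM with DMSO at 0, 20 and 40, and 83.1 ± 0.697, 79.5 ± 16.3 and 91.4 ± 1.82 with etoposide (SD, n = 3). Without the replicate block its log2 difference between the arms at 40 was 0.25 (SE 0.12, edgeR adjusted p = 1), with etoposide higher in 3 of 3 same-numbered pairs. With the block the HSF1 difference was 0.25 (SE 0.11, edgeR quasi-likelihood unadjusted p = 0.042, adjusted p = 0.996). Its interaction at 40 was 0.25 without the block (SE 0.18). None of these passed the threshold. HSF2, a second factor of the family, had a log2 difference between arms at 40 of -0.25 (SE 0.14), also not past it. The constitutive cytosolic HSP90 gene HSP90AB1 differed between 40 and 0 by -0.03 (SE 0.17) with DMSO and 0.08 (SE 0.17) with etoposide.

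The 8 genes did not vary as 1 block. Over the 18 libraries, on log2 CPM centred within each replicate number, Pearson's r was 0.88 between HSP90AA1 and HSPD1 and 0.83 between HSPH1 and HSPD1, and 0.72 between BAG3 and HSPB1. HSPH1 and HSPB1 went opposite ways, with r = -0.65. DNAJB1 was closest to BAG3 (0.58) and HSPA8 (0.55) and ran against HSP90AA1 (-0.41). Etoposide time point 20 replicate 2, where HSP90AA1 was at its highest and HSPB1 at its lowest, weighs on these values. Without it the r of HSP90AA1 with HSPD1 was 0.79, that of HSPH1 with HSPB1 -0.43, and that of HSP90AA1 with HSPB1 went from -0.50 to -0.06. The points share library, depth and scaling, and these are descriptions.

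Among 10814 genes of at least 5 CPM, those whose pattern over the 18 libraries was most like each of the 8 were named by the highest Pearson's r on the same scale. DNAJB1 was most like ZNF703 (0.94) and CEBPB (0.935), both transcription regulator genes, and these values were 0.96 and 0.95 over 17 libraries without etoposide time point 20 replicate 2. CEBPB had a log2 difference between 40 and 0 of -0.90 (SE 0.28) with DMSO and -0.64 (SE 0.28) with etoposide. It passed with the replicate block, at -0.88 (edgeR adjusted p = 0.0013) and -0.62 (edgeR adjusted p = 0.046). CEBPB was named for its likeness to DNAJB1 over these same libraries, so its fall is no separate support for that of DNAJB1. No difference is given for ZNF703. The nearest pattern to HSP90AA1 was that of HSP90B1 (0.95), its paralogue of the endoplasmic reticulum, and HTATSF1 reached 0.94. Without etoposide time point 20 replicate 2 HTATSF1 was at 0.97 and HSP90B1 at 0.91. HSPB1 was most like CTXN1 (0.97) and COX8A (0.97), HSPE1 like EMC7 (0.94), HSPD1 like HBS1L (0.92), BAG3 like FZD2 (0.91), HSPH1 like PIBF1 (0.91) and HSPA8 like ANKRD1 (0.86). None of the other genes of the 8 was among these nearest patterns.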

How the data were processed

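RNA of 18 libraries (TruSeq Stranded mRNA, per the labels' protocols) was sequenced. The authors deposited unnormalised whole-number counts for each gene, and per the submitters' processing notes bcl2fastq, HISAT2, featureCounts and GRCh38 (hg38) were used. Versions, annotation release, strand setting and the treatment of multiply matching reads are unstated in the labels and headers used. Positions, exon lengths and gene types came from GENCODE release 29 on GRCh38, which held 57447 of the 58051 identifiers, and symbols from the gene tables supplied. Counts were tested with edgeR 4.0.16 (R 4.3.3; quasi-likelihood, robust, TMM factors of 0.978 to 1.02, default filter) in 1 model of the 6 groups. The filter kept 14186 genes with 99.84% of counts, p-values were adjusted by Benjamini-Hochberg over all of them, and a call means an adjusted p below 0.05. Printed CPM use the same TMM factors. Neighbours of HSPA1A and markers are in CPM of the library total. Intervals and floors cover counting error or the spread between libraries as stated, and reads amplified by PCR are not independent molecules.

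The 10 genes and all gene lists were chosen with earlier results of these data known. A difference with its p was to be printed where its unadjusted p was below 0.05, and others mainly as values, counts and ranges. From wider lists only called genes were to be named, plus overlapping genes and nearest patterns; HSF1, HSF2, HSP90AB1, HSPA6, HSPA1L and the MHC neighbours were added after their values were seen.

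Whether replicate numbers pair the libraries was checked on deviations from the group means. All 45 same-number pairs had correlations over 0.1 (0.358 to 0.911), and each of the 18 libraries matched its own number best. The main fit did not use this pairing, which entered only through the replicate block. Values printed without mention of the block therefore ignore it. Alternatives were the replicate block, DESeq2 1.42.0, limma-voom (limma 3.58.1), other scalings and filters, and libraries left out. No protein sequences were used here.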

Additional observations from a re-analysis of the deposited data

How the results depend on the processing

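In 8 of the 9 comparisons 0 of the 8 tested chaperone genes were called in every alternative run. In DMSO between time points 0 and 40 the count was 0 in 23 of 25 alternatives and 1, DNAJB1, in 2 of them, namely the replicate block in DESeq2 (log2 difference -0.33, adjusted p = 0.0417) and the replicate block in edgeR without etoposide time point 20 replicate 2 (-0.33, adjusted p = 0.0355). The cause was not tested. DNAJB1 stayed negative in all alternatives, from -0.39 to -0.26 with DMSO and from -0.35 to -0.21 with etoposide, where the lowest adjusted p was 0.200.

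Pairing by the replicate block in edgeR changed no call of a chaperone gene, with 0 called in all 9 comparisons. Counted over all tested genes, an addition made after seeing the data, calls between 0 and 40 went from 60 to 173 with DMSO and from 29 to 143 with etoposide under the block, to 108 and 68 in DESeq2, and to 12 and 6 with only the compared groups. With the block in DESeq2 they were 237 and 171. Without replicate 1 they were 2 and 0, and without replicate 2 they were 8 and 5. Over all alternatives they ranged from 2 to 237 and from 0 to 198. Among the 10 genes only HSPA1A and HSPA1B lay under the floor of 3 counts.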
